A study of Mus musculus with 4 samples.

Results

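Effector CD4 T cells of the mouse liver were defined here as T cells with *Cd4* and αβ receptor transcripts in which the transcripts that mark naive, regulatory, CD8, innate-like, endothelial, B and Kupffer cells were absent. A cell was counted when it held at least 1 unique molecular identifier (UMI, a tag that counts each captured transcript once) of *Cd3e*, *Cd3d* or *Cd3g*, at least 1 of *Cd4* and at least 1 of *Trac*, *Trbc1* or *Trbc2*. It also had to hold 0 of *Cd8b1*, *Foxp3*, *Lef1*, *Ccr7*, *Trav11*, *Zbtb16*, *Kdr*, *Clec4g*, *Cd79a* and *C1qa*, and at most 1 of *Trdc*. Of 36401 barcodes, 35682 had 300 or more genes and no more than 10% mitochondrial counts, and 175 of those met the rule. Of these, 59 were among 17509 cells of the tdTomato+ library (0.337%, 0.257 to 0.434) and 116 were among 18173 cells of the tdTomato- library (0.638%, 0.528 to 0.765). The endothelial limits fell unevenly on the libraries. Of the cells with CD3, *Cd4* and αβ receptor counts, 1890 of 2668 tdTomato+ and 188 of 1733 tdTomato- cells held *Kdr* or *Clec4g*. Without the limits on *Kdr*, *Clec4g*, *Cd79a* and *C1qa* the shares were 1.34% and 0.770%, so their order was reversed. The bounds given here and below are exact 95% intervals, which cover counting error only. Where a gene with 0 counts is said to allow a share of cells, the limit is instead 3 counts.

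Both libraries were labelled as CD45+ cells of the liver of mice aged 2 months. Against that label, 6831 of the 17509 tdTomato+ cells (39.0%) passed an endothelial gate, while 20 of the 18173 tdTomato- cells (0.110%) did. The genotype was given as S2, taken here as the mouse line of the study that carries *Stab2-CrexERT2* together with the *R26-LSL-tdT* reporter, in which tamoxifen on embryonic day 9.5 had switched on tdTomato, for life and in all descendants, in cells that then used the *Stab2* promoter. *Stab2* encodes a scavenger receptor of endothelium, in the adult among others that of liver sinusoids. The labels list no treatment of the adult mice. The label of the control library gives CD45+ alone, and the name tdTomato- was taken from the protocol. The tdTomato+ cells formed batch 1 and the tdTomato- cells batch 2, with 1 library of each, so sort and batch cannot be told apart and no test between them was possible. The sort itself sets the share of each cell type in a library, and the number of mice behind each library was not given in the sources used here.

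Effector CD4 T cells are helper T cells that have met antigen and left the naive state. They no longer recirculate through lymph nodes as naive cells do, and they act by secreting cytokines and by presenting ligands such as CD40L to B cells and dendritic cells. Subsets are named after their cytokines and master regulators, for example type 1 helper (Th1) cells with T-bet and IFN-γ, and in the liver CXCR6 is a common receptor of lymphocytes that stay in the sinusoids.

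The libraries held 203366009 UMIs in the tdTomato+ sort and 156771260 in the tdTomato- sort. They shared 84 cell barcodes, none of them in an effector CD4 T cell. Within the class the median depth was 5360 UMIs and 2228 genes per cell in the tdTomato+ library and 5716 UMIs and 2258.5 genes in the tdTomato- library. The cells ranged from 953 to 27497 UMIs in the tdTomato+ library and from 672 to 31102 in the tdTomato- library. The summed class held 388123 UMIs in the tdTomato+ library and 730485 in the tdTomato- library, and levels below are CPM, counts scaled to the summed UMIs of the class.

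The rule asked for zeros, and a shallow cell reaches zero more easily. Naive CD4 T cells, defined by at least 2 counts of *Lef1* and *Ccr7* together under the same other limits, had a median of 6873 UMIs in the tdTomato+ library and 7272 in the tdTomato- library, above the effector medians. Effector cells made up 13.4% (10.4 to 17.0) of 439 tdTomato+ CD4 αβ T cells and 15.9% (13.3 to 18.7) of 731 tdTomato- ones. When each cell was first thinned to 2000 UMIs and the rule applied afterwards, the shares were 34.4% and 34.5%, so these shares depended strongly on depth. The intermediate cells, which had 1 count of *Lef1* or *Ccr7* and stood just outside the rule, numbered 35 in the tdTomato+ library and 60 in the tdTomato- library. At the other limits, *Cd4* was represented by a single count in 26 of the 59 tdTomato+ cells and 50 of the 116 tdTomato- cells. *Trdc*, the δ chain constant gene, was at 1 in 0 tdTomato+ cells and 17 tdTomato- cells, and the next step, 2 counts, would have added 0 and 2 cells.

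The marker genes were present in both libraries, each in a part of the cells. *Cxcr6* (chromosome 9, 123806477 to 123811754, GRCm38) stood at 289 CPM (238 to 347) in the tdTomato+ cells and 423 CPM (377 to 473) in the tdTomato- cells, with a UMI in 24 of 59 and 77 of 116 cells. After thinning to 2000 UMIs, 26.4% of tdTomato+ and 53.5% of tdTomato- effector cells still had a *Cxcr6* UMI, against 0.336% and 0.585% of B cells, whose median depths were 6606 and 5828.5 UMIs. *Icos*, a costimulatory receptor, was found in 41 tdTomato+ and 57 tdTomato- cells, and *Cd40lg*, which encodes CD40L, in 35 and 69. *Cd40lg* had no UMI in the 300 and 348 B cells, which allows shares of up to 1.00% and 0.862%. All 3 of *Cxcr6*, *Cd40lg* and *Icos* were detected in 18 of the 59 tdTomato+ cells and 32 of the 116 tdTomato- cells, and none of the 3 in 9 and 13.

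Of these markers *Cxcr6* and *Icos*, but not *Cd40lg*, were at least 2-fold above naive cells in both libraries. *Cxcr6* was at 36.8 CPM in naive cells of the tdTomato+ library and 63.1 CPM in those of the tdTomato- library, so effector cells were log2 2.97 (2.56 to 3.38) and 2.75 (2.51 to 2.98) higher. *Icos* was at 402 and 301 CPM in effector cells, against 119 and 150 CPM in naive cells, and Foxp3 regulatory T cells had more of it, at 437 and 576 CPM. *Cd40lg* was at 234 and 331 CPM in effector cells and at 185 and 193 CPM in naive cells, so its log2 ratios of 0.34 (0.00 to 0.67) and 0.78 (0.57 to 0.99) stayed under 2-fold. *Cxcr6* was also high in effector CD8 T cells, at 306 CPM in the tdTomato+ library and 362 CPM in the tdTomato- library.

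**Figure D1:**
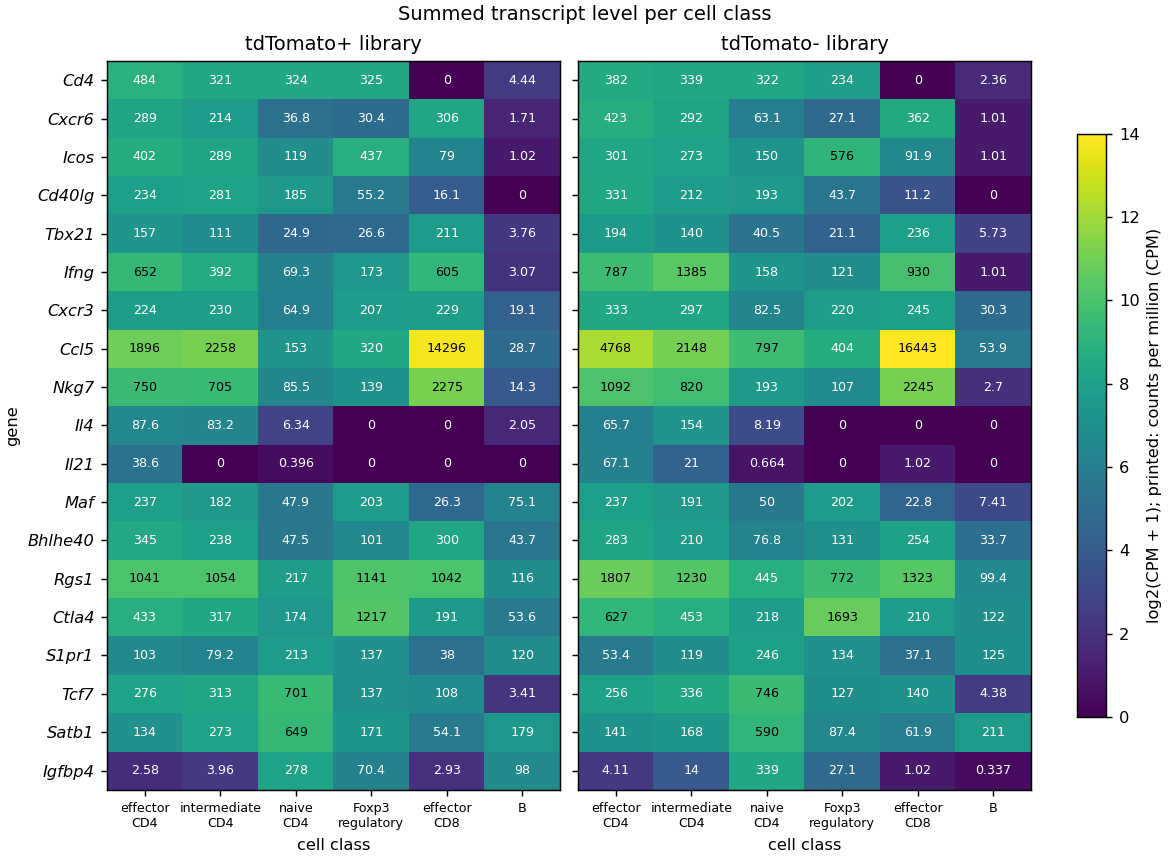
Summed level of named genes (down) in effector, intermediate, naive and Foxp3 regulatory CD4 T cells, effector CD8 T cells and B cells (across), with the tdTomato+ library on the left and the tdTomato- library on the right, colour as log2(CPM + 1) and the CPM printed in each field. *Ifng* stands at 652 and 787 CPM in effector CD4 T cells of the tdTomato+ and tdTomato- library, against 69.3 and 158 CPM in naive cells, and *Tcf7* at 276 and 256 CPM, against 701 and 746 CPM.

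The gates of the rule were fixed on measured values, and every cell compared here was chosen by them, so the contrast of effector with naive cells is given as a description with no test. A gene was counted when its ratio reached 2-fold and its level 50 CPM in at least 1 of the classes. In the tdTomato+ library, 419 of 3855 genes (10.9%) were at least 2-fold higher in effector cells and 111 (2.88%) at least 2-fold lower. In the tdTomato- library, 292 of 3774 genes (7.74%) were higher and 116 (3.07%) lower. Among the 3441 genes measured at this level in both, 153 (4.45%) were higher in both libraries and 64 (1.86%) lower in both, while 2 (0.0581%), *Tyrobp* and *Trbv20*, passed 2-fold in opposite directions. The median gene lay 0.26 log2 units higher in tdTomato+ and 0.17 units higher in tdTomato- effector cells, and the ratios below were not shifted for it.

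Genes of the Th1 programme were higher in effector cells. Of the Th1 list, 10 of 10 members at 50 CPM were at least 2-fold higher in tdTomato+ effector cells and 8 of 11 in tdTomato- effector cells, with list medians of log2 2.10 and 2.14, against 0.26 and 0.19 over all genes with 10 CPM. *Tbx21*, which encodes T-bet, was at 157 and 194 CPM in effector cells, against 24.9 and 40.5 CPM in naive cells. *Ifng* (chromosome 10, 118441046 to 118445894, GRCm38) had 652 CPM (574 to 737) in tdTomato+ effector cells and 787 CPM (724 to 854) in tdTomato- effector cells, against 69.3 and 158 CPM in naive cells. *Cxcr3*, the chemokine receptor of Th1 cells, was log2 1.79 and 2.01 higher, and *Nkg7*, a granule membrane gene, 3.13 and 2.50 higher. The chemokine *Ccl5* reached 1896 CPM in tdTomato+ effector cells and 4768 CPM in tdTomato- ones, against 153 and 797 CPM in naive cells. In the tdTomato- class, 75.3% of the *Ccl5* and 60.3% of the *Nkg7* counts lay in 39 cells described below, which made up 33.6% of it. *Eomes*, the relative of T-bet that marked effector CD8 T cells at 110 and 115 CPM, was at 7.73 and 4.11 CPM in effector CD4 cells, close to its level in naive cells (7.52 and 5.97 CPM).

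**Figure D2:**
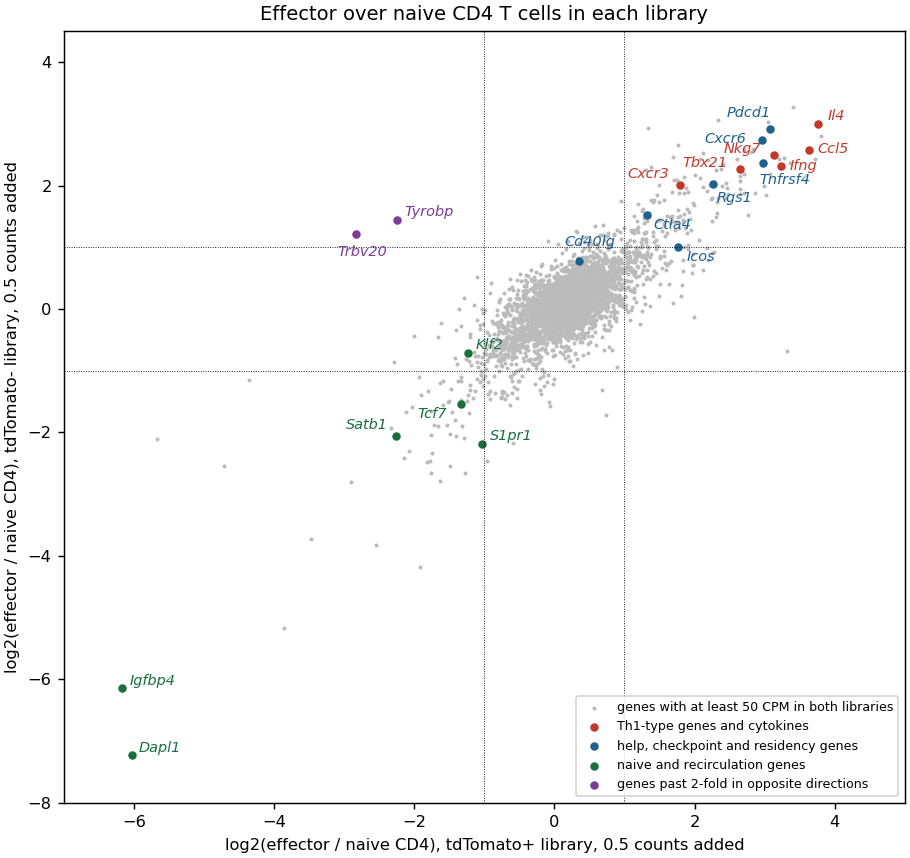
Log2 ratio of effector over naive CD4 T cells for each gene with at least 50 CPM in both libraries, in the tdTomato+ library (horizontal) and the tdTomato- library (vertical), with 0.5 counts added to each class. *Lef1*, *Ccr7* and *Cd4*, which the rule used, are left out, dotted lines mark 2-fold, and *Tyrobp* and *Trbv20* are the 2 genes past 2-fold in opposite directions.

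Cytokine transcripts were unevenly spread over the cells. *Ifng* was detected in 32 of 59 tdTomato+ and 75 of 116 tdTomato- cells, and the cell with the most held 44 of 253 and 39 of 575 counts. *Il4*, the signature cytokine of Th2 cells, was found in 6 tdTomato+ cells (34 counts, 21 of them in 1 cell) and 19 tdTomato- cells (48 counts, at most 10 in 1 cell). *Il21*, a cytokine that acts on B cells, was found in 4 and 8 cells with 15 and 49 counts, while naive cells held 1 and 3 counts. *Il17a* had 0 counts in 59 tdTomato+ cells, which allows up to 5.08% of cells with a UMI, and 131 counts in 8 tdTomato- cells, of which 79 and 35 lay in 2 cells.

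Type 1 and other cytokines met in the same cells. All 4 tdTomato+ and all 8 tdTomato- cells with *Il21* also held *Ifng* and *Maf*, a transcription factor gene linked to *Il21* in helper cells. *Ifng* was likewise present in 5 of 6 tdTomato+ and 13 of 19 tdTomato- cells with *Il4*, while *Il4* and *Il21* shared 1 cell in each library. *Csf2*, the gene of GM-CSF, was in 6 tdTomato+ and 16 tdTomato- cells, each of which also had *Cxcr6*. Cells with *Il4* or *Il21* were deeper than the class, with medians of 7296 and 7617 UMIs, and a deeper cell shows more genes, so these overlaps are counts and not a measure of linkage.

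**Figure D3:**
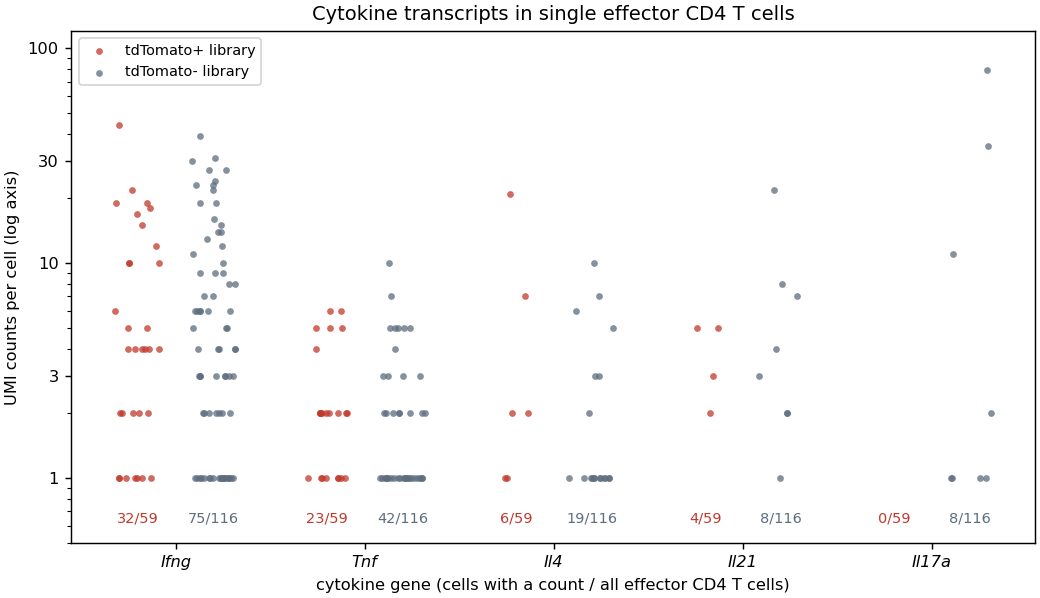
UMI counts (log axis) of *Ifng*, *Tnf*, *Il4*, *Il21* and *Il17a* in each effector CD4 T cell with at least 1 count, the tdTomato+ library left of the tdTomato- library, with the number of such cells among all effector cells below the points. *Ifng* is in 32 of 59 tdTomato+ and 75 of 116 tdTomato- cells, *Il4* and *Il21* are in fewer, and *Il17a* is in 8 tdTomato- cells and 0 tdTomato+ cells.

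Transcription factor genes of effector cells went with this pattern, with 8 of 12 members of their list at least 2-fold higher and 1 lower in the tdTomato+ library and 10 of 16 higher and 1 lower in the tdTomato- library. *Bhlhe40*, a factor that promotes inflammatory cytokines, was at 345 and 283 CPM in effector cells against 47.5 and 76.8 CPM in naive cells. *Maf* was at 237 CPM in each library and log2 2.31 and 2.24 above naive cells, but -0.63 in the tdTomato+ library when naive cells were taken without the other limits of the rule. All 6 cytotoxicity genes at this level in the tdTomato+ library and all 7 in the tdTomato- library were higher, but *Gzmb* was in 8 of 59 tdTomato+ cells and 57 of 116 tdTomato- cells. In the tdTomato- class, 96.9% of the *Gzma* and 79.3% of the *Gzmb* counts lay in the 39 cells noted above for *Ccl5*. Of the cell cycle list 9 of 11 genes were higher in the tdTomato+ library and 0 of 6 in the tdTomato- library, a difference between libraries that was not tested.

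Several defining genes of the other helper fates had few counts. *Cxcr5*, the homing receptor of follicular helper cells, had 2 counts in tdTomato+ and 0 counts in tdTomato- cells, and *Bcl6*, their regulator, had 7 counts in tdTomato+ and 36 in tdTomato- effector cells. *Il13* was at 0 in both libraries, and *Gata3*, the Th2 regulator, was at 108 and 98.6 CPM in effector cells against 53.9 and 78.3 CPM in naive cells. *Il10* had 0 counts in tdTomato+ and 5 counts in tdTomato- effector cells, against 114 and 93.4 CPM in Foxp3 regulatory T cells. *Il2* had 3 and 5 counts. Of the members of these lists that reached 50 CPM, 2 of 2 and 1 of 2 Th2 genes, 1 of 2 and 3 of 4 Th17 genes, and 3 of 5 and 4 of 6 follicular helper genes were at least 2-fold higher in the tdTomato+ and tdTomato- library. Over the members with 10 CPM, the list medians were log2 2.70 and 1.82 for Th2, 0.87 and 1.79 for Th17 and 1.28 and 1.55 for follicular helper genes, all above the medians of all genes. The other lists were thus raised as well, and the Th2 median was above that of the Th1 list in the tdTomato+ library.

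Genes of help, costimulation and restraint were higher in effector cells. Of the help and costimulation list, 9 of 12 members in the tdTomato+ library and 7 of 10 in the tdTomato- library reached 2-fold, and 0 were 2-fold lower. *Tnfrsf4*, which encodes the costimulator OX40, was at 116 and 89.0 CPM in effector cells against 14.7 and 17.3 CPM in naive cells. *Tnfsf8*, the gene of CD30 ligand, was log2 1.49 and 1.73 higher, with 41 of 190 tdTomato- counts in 1 cell. Among checkpoint receptors, *Pdcd1*, which encodes PD-1, was at 67.0 and 68.4 CPM against 7.92 and 9.07 CPM. *Ctla4* was at 433 and 627 CPM in effector cells and at 174 and 218 CPM in naive cells, and Foxp3 regulatory T cells had 1217 and 1693 CPM.

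*Ikzf2*, which encodes the factor Helios of regulatory T cells, was at 155 and 211 CPM in effector cells, against 1031 and 653 CPM in Foxp3 regulatory T cells and 61.0 and 71.5 CPM in naive cells. Of the list of genes associated with regulatory T cells, *Foxp3* left out, 6 of 6 members at 50 CPM in the tdTomato+ library and 3 of 4 in the tdTomato- library were at least 2-fold higher in effector than in naive cells, with list medians of log2 1.67 and 1.55. *Gpr83*, another gene of regulatory T cells, was at 0 in effector cells of both libraries, against 34.2 and 18.1 CPM in the Foxp3 class. Because the rule required 0 counts of *Foxp3*, a regulatory T cell in which *Foxp3* was missed would have been admitted, and the share of such cells was not tested.

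Among the 10 genes with the largest excess over naive cells in both libraries were *Serpina3g*, *Asb2*, *Il4*, *Pdcd1*, *Cxcr6*, *Chsy1*, *Cish*, *Ccl5* and *Runx2*, ranked by the smaller of the 2 ratios. *Serpina3g*, a serine protease inhibitor of activated lymphocytes, was at 198 and 345 CPM in effector cells against 18.6 and 35.6 CPM in naive cells. *Asb2*, a substrate receptor of an E3 ubiquitin ligase, was log2 3.05 and 3.03 higher, and *Chsy1*, a chondroitin synthase gene, 2.84 and 2.60 higher. *Cish*, a feedback inhibitor that cytokine receptors induce through STAT5, was at 139 and 194 CPM against 21.4 and 32.3 CPM. *Il2rb*, whose product is the shared β chain of the IL-2 and IL-15 receptors, was log2 2.08 and 2.43 higher.

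*Cish* is a known target of STAT5 and prompted a search in which the proximal promoters of the 10 leading genes were scanned for the STAT-type motif TTCNNNGAA, which reads the same on both strands. Windows covered 250 bases before to 50 after each RefSeq gene start in GRCm38.p6 and existed for 8 of the 10 genes. Of these, 3 held the motif, *Cish* among them, which leaves 2 of the 7 other genes, against 9.55% of the 27025 genes with a window and 8.30% of all 32851 windows, and the 30 bases around each match are shown with the motif in capitals.
*Serpina3g*, chr12:104236104-104236133, plus strand: taagttatagTTCCCAGAAatcacccggtc
*Il4*, chr11:53617323-53617352, minus strand: agttcctgttTTCATGGAAacacaccactg
*Cish*, chr9:107296654-107296683, plus strand: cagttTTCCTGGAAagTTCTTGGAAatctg
The *Cish* stretch held 2 copies. The *Il4* stretch lay inside the annotated span of that gene (53612460 to 53618665), not before its outer end. A gene with several annotated starts can have more than 1 window. The 10 genes were ranked on these same data, and whether their share with the motif exceeds that of all genes was not tested. A match describes the letters of these windows and says nothing of binding in these cells.

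Genes of the naive and recirculating state were lower. Leaving out *Lef1* and *Ccr7*, which the rule used, 15 of 16 members of that list in the tdTomato+ library and 13 of 16 in the tdTomato- library were at least 2-fold lower. *S1pr1*, the receptor that T cells use to leave tissue, was at 103 and 53.4 CPM in effector cells against 213 and 246 CPM in naive cells. *Tcf7*, the gene of the transcription factor TCF-1, kept 276 and 256 CPM in effector cells, against 701 and 746 CPM in naive cells.

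*Dapl1* and *Igfbp4* gave the sharpest contrast. *Dapl1* had 0 counts in effector cells of both libraries and 213 and 465 counts in naive cells, at least 10.9-fold and 25.0-fold lower when 3 counts are taken as the floor of the class. *Igfbp4*, which encodes a binding protein of insulin-like growth factors, had 1 and 3 counts against 703 and 1534, log2 -6.76 (-12.06 to -4.27) and -6.37 (-8.65 to -4.82). *Ly6c1*, *St8sia6*, *Tdrp*, *Rflnb*, *Actn1* and *Ifngr2*, the last a chain of the IFN-γ receptor, were also among the 10 lowest, with *Lyz2*. The myeloid gene *Lyz2* had 78 of its 111 tdTomato- effector counts in 1 cell, and its tdTomato- ratio of -2.55 was 3.22 without cells of high myeloid RNA. *Ifngr2* had 0 counts in tdTomato+ effector cells and 16.4 CPM in tdTomato- ones, against 65.7 and 73.7 CPM in naive cells.

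Retention genes were mixed, with 7 of 11 members of that list 2-fold higher and 1 lower in the tdTomato+ library and 7 of 13 higher in the tdTomato- library. *Rgs1*, a regulator of chemokine receptor signalling, was at 1041 and 1807 CPM in effector cells against 217 and 445 CPM in naive cells. *Cd44*, an adhesion receptor of antigen-experienced T cells, was log2 2.07 and 1.11 higher. *Itga1*, an integrin chain of resident lymphocytes, had 59.3 and 137 CPM, while *Cd69*, which blocks exit from tissue, was at 505 and 736 CPM in effector cells and at 476 and 533 CPM in naive cells. Neither the interferon response list (0 of 11 and 2 of 12 members 2-fold higher) nor the heat shock and dissociation list (0 of 9 in each library) set the class apart.

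The effector cells fell into 3 clusters, described by number because the same genes made the clusters. Cluster 1 had *Cd8a*, *Klrd1*, *Klre1* and *Atp8a2* among its 10 genes highest by fold, with *Ly6d*, *Siglech* and *Klk1* above them through a few cells. It held 10 tdTomato+ and 50 tdTomato- cells, with *Cxcr6* at 643 CPM and *Ccl5* at 7043 CPM against 231 and 1986 CPM in the other clusters. *Cd8a* was at 180 against 9.67 CPM, with counts in 11 of 60 cells. Of cluster 1, 1 tdTomato+ and 22 tdTomato- cells were marked by transcripts of other T cell lineages, as described below. Clusters 2 and 3 held 10 and 2 such tdTomato- cells. Cluster 2, of 41 tdTomato+ and 60 tdTomato- cells, had *Cxcr6* at 228 CPM, *Icos* at 462 CPM and *Cd40lg* at 377 CPM. The other clusters had 527, 208 and 217 CPM of these genes. Its 10 genes highest by fold included *S1pr1* (129 against 10.8 CPM) and *Tcf7* (428 against 93.9 CPM), both of the naive and recirculating state. *Klf2* was also higher, at 2533 against 865 CPM, but *Satb1*, another naive gene, was lower, at 88.5 against 190 CPM. *Il17a* was first by fold, with 79 of its 128 counts in 1 cell. Cluster 3 held 8 tdTomato+ and 6 tdTomato- cells with cell cycle genes such as *Pclaf* and *Aurkb*. The cluster sizes were not compared between the libraries. The split depended on the settings. At Leiden resolution 1 there were 7 clusters, and the cluster that held most of cluster 1 had 58.3% of its cells, against 36.6% for cluster 2, while among the 14 tdTomato+ and 49 tdTomato- cells with no endothelial count there was 1 cluster.

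In the tdTomato- library 10 effector cells shared 1 pair of receptor genes, a feature noticed after their values were seen. The leading α and β variable genes of a cell, those with the most counts, could be named in 37 tdTomato+ and 69 tdTomato- effector cells. *Trav14d-3-dv8* with *Trbv20* was the pair of 0 of 37 tdTomato+ cells (up to 9.49%) and 10 of 69 tdTomato- cells (14.5%, 7.17 to 25.0). The pair was seen in 1 of 259 tdTomato+ and 2 of 443 tdTomato- naive cells, in 0 of 47 and 0 of 38 Foxp3 regulatory T cells, and in 1 of 116 and 1 of 175 effector CD8 T cells. Over all kept cells with CD3 transcripts it was the pair of 23 of 4326 tdTomato+ cells (0.532%, 0.337 to 0.797) and 27 of 7352 tdTomato- cells (0.367%, 0.242 to 0.534), so the pair itself was not confined to the tdTomato- library. In the 10 cells *Trav14d-3-dv8* had 4 to 18 counts (median 8) and *Trbv20* 7 to 18 (median 11.5). *Trav14* genes have near-identical copies, between which reads can be split. The receptor contigs used here covered γ and δ chains, so the CDR3 was not read and whether the 10 cells were a clone was not tested.

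The same 10 cells, 5 of which also belong to the marked cells described next, were rich in cytotoxic transcripts. *Ccl5* ranged from 27 to 277 counts per cell (median 126.5) and stood at 22522 CPM in these cells, against 3153 CPM in the other 106 tdTomato- effector cells. *Klrd1*, which encodes the NK receptor chain CD94, was found in 10 of 10, with 1 to 13 counts, and *Gzma*, the gene of granzyme A, stood at 5828 CPM against 532 CPM. *Tox*, a nuclear factor of chronically stimulated T cells, was at 1231 against 297 CPM, and *Nkg7* at 3185 against 902 CPM. *Icos* was at 32.8 against 326 CPM, and *S1pr1* and *Il7r* had 0 counts in all 10. *Cxcr6* was present in 9 of 10, and their depth, 4239 to 15593 UMIs with a median of 5379, lay within that of the class. All 10 fell in cluster 1, which shared much of this pattern. Over its 60 cells, these 10 included, *Ccl5* stood at 7043, *Gzma* at 1663, *Nkg7* at 1549, *Icos* at 109 and *S1pr1* at 7.59 CPM, and *Klrd1* was found in 37 cells.

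**Figure D4:**
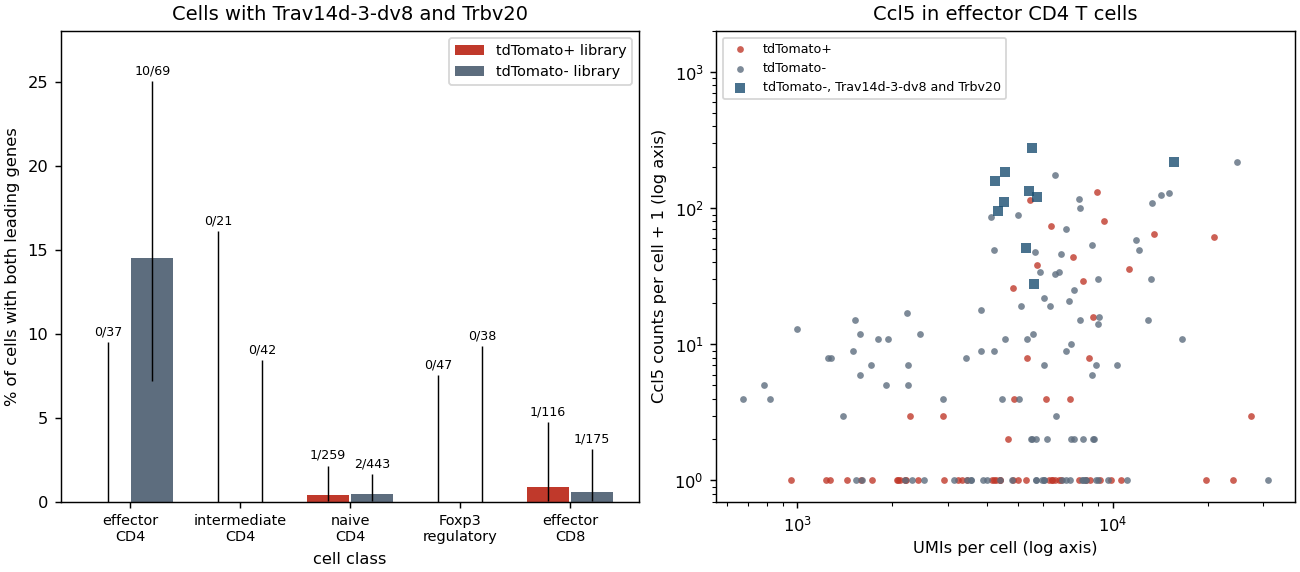
Left, the percentage of cells whose leading receptor genes were *Trav14d-3-dv8* and *Trbv20*, by cell class and library, with cell counts and exact 95% intervals. Right, *Ccl5* counts plus 1 against UMIs for each effector CD4 T cell on log axes, in which the 10 cells with the pair (squares) have 27 to 277 counts.

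A further group of effector cells carried transcripts of other T cell lineages that the rule had allowed. Any count of *Trdc*, *Trgc1* or *Cd8a*, or a γ or δ receptor contig, was found in 1 of 59 tdTomato+ cells and 34 of 116 tdTomato- cells. *Trdc* was in 17, *Trgc1* in 15 and *Cd8a* in 17 of the tdTomato- cells, 14.7%, 12.9% and 14.7%, against 1.15%, 0.287% and 1.15% of tdTomato- B cells. Naive CD4 T cells held them too, in 6.31%, 2.34% and 4.32% of tdTomato- and 0.870%, 0.870% and 0.290% of tdTomato+ cells. The marks were thus not confined to effector cells, and naive cells also had more of them in the tdTomato- library. Within the tdTomato- library these 34 cells had 2756 CPM of *Ccl4*, against 103 CPM in the 82 unmarked cells, 1709 against 275 CPM of *Gzmb*, and 949 against 63.0 CPM of *Tyrobp*, an adaptor of NK receptors. They had less *Icos* (102 against 407 CPM) and less *Tcf7* (70.9 against 355 CPM). Single cells weighed on these levels: 1 cell held 185 of the 749 *Ccl4* counts of the tdTomato- class, and 1 cell 114 of its 271 *Tyrobp* counts. Of the 34, 5 also carried the shared receptor pair. The γδ T cell list of 9 genes had at least 1 count in 14 of 59 tdTomato+ and 63 of 116 tdTomato- effector cells. The same held for 17 of 345 and 80 of 555 naive cells and for 89 of 155 and 160 of 267 effector CD8 T cells. Among B cells it held for 7 of 300 and 13 of 348. Some unmarked cells thus also held counts of that list. Whether the marked cells were CD4 T cells, another lineage with some *Cd4* RNA or 2 cells in 1 droplet was not tested.

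These 39 cells, marked or with the shared pair, made up 33.6% of the tdTomato- class and held most of its counts of some granzyme, chemokine and NK adaptor genes. They held 75.3% of its *Ccl5* counts, 96.9% of its *Gzma*, 79.3% of its *Gzmb*, 94.5% of its *Ccl4* and 88.9% of its *Tyrobp* counts. *Fasl* and *Gzmk* were less confined to them, at 162 and 44.3 CPM in the other 77 cells against 186 and 58.9 CPM in the whole class. The genes named in the comparison of the libraries are therefore given with and without these 39 cells.

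Between the libraries, 145 of 4004 genes (3.62%) were at least 2-fold higher in tdTomato+ effector cells and 134 (3.35%) at least 2-fold lower. Without the marked and shared-pair cells, which left 58 tdTomato+ and 77 tdTomato- cells, 184 of 4003 genes (4.6%) were higher and 118 (2.95%) lower. Of the NK receptor list 7 of 7 members were 2-fold lower in tdTomato+ cells with all cells and 2 of 6 without those cells, where *Klrd1* was at log2 -0.88 (-1.58 to -0.21), *Klrc1* at -0.85 (-1.88 to 0.10) and *Fcer1g* at 0.20 (-0.56 to 0.96). Of the Th1 list 5 of 12 were lower and 1 higher with all cells, and 1 of 11 lower and 0 higher without them, while 0 of 12 help and costimulation genes passed 2-fold either way. *Ccl5* had 1896 CPM in the tdTomato+ class and 4768 CPM in the tdTomato- class, log2 -1.33 (-1.45 to -1.22). Without the marked and shared-pair cells *Ccl5* was at 1925 and 1910.2 CPM, log2 0.01 (-0.13 to 0.15). *Nkg7* was log2 -0.54 (-0.74 to -0.35) with all cells and 0.10 (-0.14 to 0.33) without them, and *Ccl4* was -3.35 (-3.85 to -2.89) and 0.17 (-0.50 to 0.84). *Gzma* was -2.89 (-3.33 to -2.48) with all cells and 1.46 (0.71 to 2.25) without them, but 50 of its 51 tdTomato+ counts lay in 1 cell. The same cell held 20 counts of *Klrd1*, most of the *Klrd1* counts of the tdTomato+ class, so the tdTomato+ level of *Klrd1* leaned on it as well.

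Some differences were present with and without those cells. *Gzmb*, the gene of granzyme B, was log2 -3.02 (-3.54 to -2.54) in tdTomato+ over tdTomato- cells and -1.42 (-1.99 to -0.87) without the 39 cells and the 1 marked tdTomato+ cell. *Il12rb2*, a chain of the IL-12 receptor, had 41.2 CPM in tdTomato+ cells and 162 CPM in tdTomato- cells, log2 -1.97 (-2.82 to -1.21) and -1.82 (-2.71 to -1.02). *Fasl*, a death ligand, was -1.22 (-1.83 to -0.65) and -1.04 (-1.70 to -0.41). Higher in tdTomato+ cells were *Il18r1*, a chain of the IL-18 receptor, at log2 1.01 (0.57 to 1.45) and 0.81 (0.33 to 1.30), and *Nfkbia*, an inhibitor of NF-κB, at 1.40 (1.21 to 1.59) and 1.25 (1.04 to 1.46). Among the 14 tdTomato+ and 49 tdTomato- cells with no count of an endothelial gene, however, *Nfkbia* was at -0.12 (-0.80 to 0.50), from 25 and 131 counts. With 1 library per sort, these intervals do not cover differences between animals or preparations.

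**Figure D5:**
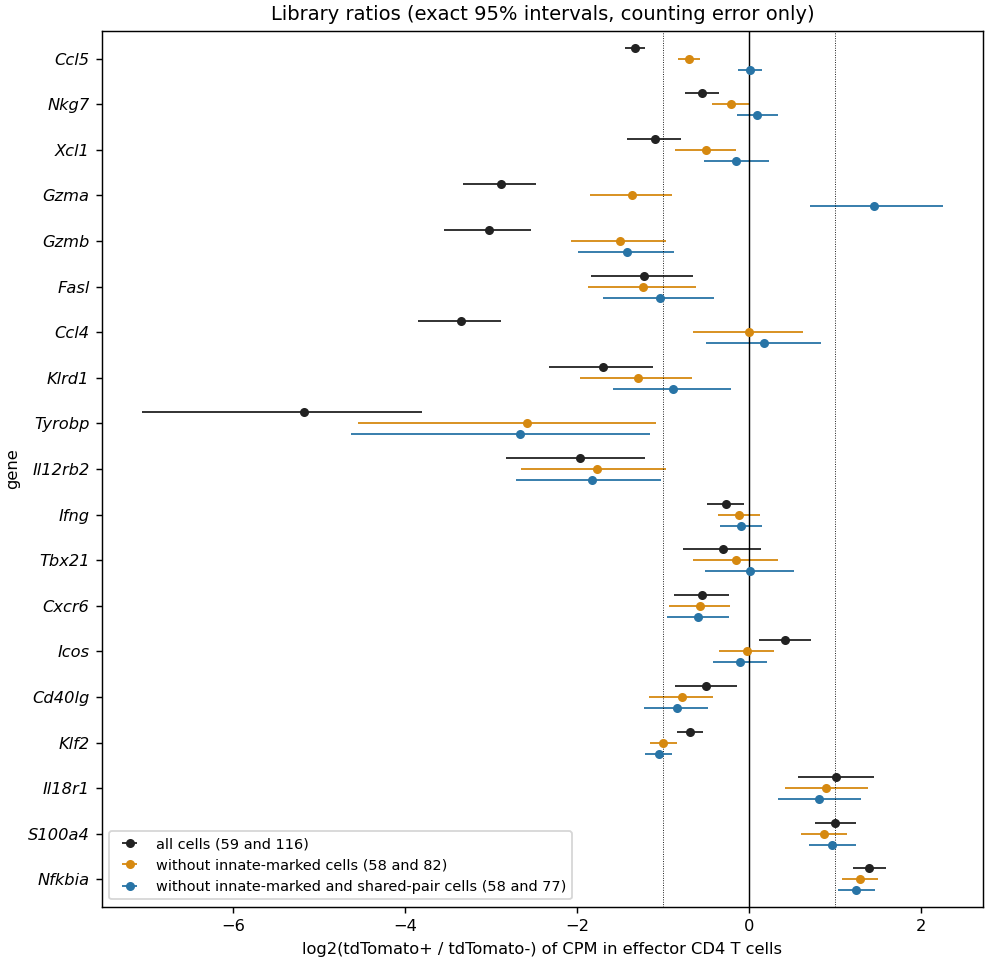
Log2 ratio of tdTomato+ over tdTomato- effector CD4 T cells for named genes with exact 95% counting intervals, with all 59 and 116 cells (black), without cells that carry innate-type transcripts (58 and 82, orange) and also without the shared receptor pair (58 and 77, blue). *Ccl5* lies at -1.33 with all cells and 0.01 without both kinds of cell, and *Gzmb* at -3.02 and -1.42.

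The 3 marker genes and *Ifng* stayed within 2-fold. In tdTomato+ over tdTomato- cells *Cxcr6* was log2 -0.55 (-0.88 to -0.24), *Cd40lg* -0.50 (-0.86 to -0.15), *Icos* 0.42 (0.11 to 0.72) and *Ifng* -0.27 (-0.49 to -0.06). Without the marked and shared-pair cells *Cxcr6* was -0.59 (-0.95 to -0.24), *Cd40lg* -0.84 (-1.22 to -0.47), *Icos* -0.11 (-0.42 to 0.21) and *Ifng* -0.09 (-0.34 to 0.15).

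The largest ratios between the libraries rested on few cells. Of the 10 genes highest in tdTomato+ cells, *Cenpe*, *Kif22*, *Hmmr*, *Nusap1*, *Ube2c*, *Cenpf* and *Kif20b* are mitosis genes. Among the 14 tdTomato+ cells with no endothelial count these 7 genes and *Mki67* had 0 counts, against 2 to 17 counts in the 49 such tdTomato- cells, too few to give a direction. *Mki67*, a marker of cycling cells, was in 11 of 59 tdTomato+ and 13 of 116 tdTomato- cells, at 283 and 64.3 CPM, with 69 of its 110 tdTomato+ counts in 1 cell. Of the 10 lowest, *Siglech*, *Klk1* and *Ly6d* had 0 tdTomato+ counts and 87, 63 and 95 tdTomato- counts, of which 64, 55 and 62 lay in 1 cell. *Siglech* and *Ly6d* are genes of plasmacytoid dendritic cells, and *Ly6d* is also a B cell gene. *S100a8*, *S100a9* and *Lyz2* are myeloid genes.

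RNA of other cell types was present in both libraries. The 7 genes of the myeloid list summed to 227 CPM in effector cells of the tdTomato+ library and 1316 CPM in those of the tdTomato- library, and 9 tdTomato- cells held over 20 such counts. The endothelial list of 20 genes summed to 338 CPM in the tdTomato+ class and 219 CPM in the tdTomato- class, with at least 1 count in 45 of 59 and 67 of 116 cells and 5 and 7 genes at 0. Under the same limits on *Kdr* and *Clec4g*, it was 350 and 269 CPM in naive CD4 T cells and 228 and 149 CPM in Foxp3 regulatory T cells. In B cells, which were gated without those limits, it was 3700.1 and 221 CPM. Over 20 such counts were held by 28 tdTomato+ and 0 tdTomato- B cells. *Stab2* itself had 7 counts in tdTomato+ and 2 in tdTomato- effector cells. The part of this RNA in the differences between the libraries was not tested.

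β chain usage was broad apart from the shared pair. A leading β variable gene was named in 45 of 59 tdTomato+ and 93 of 116 tdTomato- cells, spread over 14 and 16 genes. *Trbv12-2* led, in 9 of the 45 (9.58 to 34.6%) and 15 of the 93 (9.32 to 25.2%), against 26 of 325 and 48 of 530 naive cells. *Trbv20* was in 2 of the 45 tdTomato+ cells (0.543 to 15.1%) and 14 of the 93 tdTomato- cells (8.48 to 24.0%), 10 of which had the shared pair.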

How the data were processed

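Single-cell 5′ gene expression of CD45+ tdTomato+ and tdTomato- liver cells was analysed from the deposited UMI counts, made by the authors with Cell Ranger 10.0.0 (per the file headers) against mm10 (per the submitters' processing notes), with no further normalization. The deposited γ and δ receptor contig tables, with UMI counts per contig, served to mark cells, and their columns were all mapped to a library. Of 33696 genes in the files, 330 formed 32 gene lists, of which 1 member was not in the files. The members and lists were chosen with earlier results of these data known.

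Cells were filtered at 300 genes and 10% mitochondrial counts and gated on counts as described above. Counts were summed per class and library and given as CPM. Ratios are tdTomato+ over tdTomato- or effector over naive, with exact conditional binomial intervals. In the plots and under other settings, 0.5 counts were added. Levels and shares have exact Poisson and Clopper-Pearson intervals at 95%. With 1 library per group there is no test. Shares of cells with a UMI were also taken after thinning to 2000 UMIs, which 53 tdTomato+ and 99 tdTomato- effector cells reached (6 and 17 were shallower). A gene with 0 counts is given the limit of 3 counts, while a share of 0 cells with the receptor pair has its Clopper-Pearson bound. No doublet caller was run: gates on other lineages removed mixed droplets in part, and droplets with 2 T cells may remain.

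Genes named were those of the rule, the markers, list members with at least 10 CPM or described as near 0, and the 10 highest and 10 lowest by each ratio at 50 CPM, without rule genes, receptor, immunoglobulin and mitochondrial genes. The genes that lead clusters and the receptor pair were named after their values were seen. Clusters came from Leiden at resolution 0.5 on 2000 variable genes, 30 principal components and 15 neighbours (scanpy 1.11.5, leidenalg 0.10.2, scipy 1.17.1, Python 3.11.15). Scripts were checked on simulated data. Alternatives changed the cell filter, the limits on *Cd4*, *Trdc* and other-cell genes, depth, scaling, the level minimum, the added counts, the naive contrast and the cluster resolution. Leaving out cells with innate-type transcripts, myeloid RNA or the shared receptor pair, or the top cell of a gene, was chosen after seeing the data. Some genes are not reported here.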

Additional observations from a re-analysis of the deposited data

Results flagged for a closer look

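*Tyrobp* and *Trbv20* were the 2 of 3441 genes (0.0581%) that passed 2-fold in opposite directions in the libraries. *Tyrobp*, effector over naive with 0.5 counts added, was log2 -2.25 in the tdTomato+ library (4 counts in effector cells) and 1.45 in the tdTomato- library (271 counts, 114 of them in 1 cell), where it was -0.68 without the cells with innate-type transcripts. *Trbv20* was log2 -2.84 in the tdTomato+ library and 1.22 in the tdTomato- library, where 10 cells shared it with *Trav14d-3-dv8* and it was -0.75 without them. The difference between the libraries was not tested, since there was 1 library per sort.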

How the results depend on the processing

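No paired analysis was possible because each sort had 1 library, and for the same reason no replicate was left out. Of the ratios of named genes under other settings, 1356 kept their size, 396 moved and 28 changed sign, and of the list medians 365 kept it, 52 moved and 1 changed sign. The cause was not tested for any of them. Leaving out cells with innate-type transcripts, myeloid RNA or the shared pair, or a gene's top cell, was chosen after seeing the data. The stricter cell filter changed no sign but moved 3 of 130 named ratios. For these 130, 5 added counts moved 30 and leaving out the top cell moved 30, without a change of sign. Thinning after gating moved 58 of the 130. With no endothelial count, 53 moved, 15 changed sign and 60 kept their size. Against naive cells without the other limits of the rule, 79 effector over naive ratios moved, 1 changed sign and 17 kept their size. In that setting 17 list medians moved and 5 kept their size. *Trdc* of 0 was run on 5 shares and moved 0.

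Shares of effector cells among kept cells (tdTomato+, then tdTomato-) were 0.188% and 0.363% with *Cd4* of at least 2, 0.0800% and 0.270% with no endothelial count, 1.34% and 0.770% with no limit on other-cell genes, and 0.572% and 0.901% with the rule applied to thinned cells. Their shares of CD4 αβ T cells were 18.7% and 26.1% with no endothelial count and 34.4% and 34.5% on thinned cells. Without innate-type cells the tdTomato- shares were 0.451% and 13.1%, and without the shared pair as well 0.424% and 12.4%.

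Genes at least 2-fold higher and lower in effector over naive cells numbered 278 and 199 in the tdTomato+ library after centring on the median. With a minimum of 10 CPM they were 1312 and 558 in the tdTomato+ library and 930 and 416 in the tdTomato- library, and with no minimum 4599 and 1046, and 4773 and 1105. After thinning they were 754 and 226, and 504 and 199, and with no endothelial count 1072 and 481, and 502 and 211. Against naive cells without the other limits, 727 genes were lower in the tdTomato+ library and 80 higher in the tdTomato- library, and *Maf* was at log2 -0.63 in the tdTomato+ library. Between the libraries 770 were higher and 880 lower at 10 CPM, 1810 and 1809 with no minimum, 486 and 418 after thinning, 837 and 780 with no endothelial count, and 325 and 216 as means of per-cell CPM.

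Among cells with no endothelial count, the tdTomato+ over tdTomato- log2 ratios were -0.10 for *Nfkbia*, -1.98 for *Mki67*, -2.17 for *Top2a*, -0.62 for *S100a4*, -0.54 for *Cenpe*, -0.057 for *Kif22* and *Hmmr*, -0.90 for *Nusap1*, -2.86 for *Ube2c*, -1.44 for *Cenpf* and *Kif20b*, and 0.68 for *Ly6d* and *Klk1*. The 14 tdTomato+ cells held 0 counts of 10 of these genes, all but *Nfkbia*, *Top2a* and *S100a4*, so the sign of those 10 rests on the 0.5 counts added and gives no direction. There the effector over naive ratio was 0.13 for *Trbv20* and the NK receptor median -2.06 in the tdTomato+ library, and *Lyz2* was 2.50 in the tdTomato- library. Without cells of high UMI counts *Hmmr* was -0.69 and *Ube2c* -1.13, and *S100a8*, with 1 count in tdTomato+ and 0 in tdTomato- cells and therefore no direction, was 2.42 with *Cd4* of at least 2 and 2.37 without myeloid RNA, where *Lyz2* in the tdTomato- library was 3.22. In the tdTomato- library *Tyrobp* over naive was -0.68 without innate-type cells and -0.61 without the shared pair too, and *Trbv20* was -0.75 without the shared pair and -0.55 without both. Without both, the library ratios were 0.011 for *Ccl5*, 0.17 for *Ccl4* and 1.44 for *Gzma*, with 0.5 counts added.

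Clusters 1 and 2 held 24.1% and 12.9% of tdTomato- cells and cluster 2 37.3% of tdTomato+ cells at resolution 1. Without innate-type cells cluster 2 held 55.2% of tdTomato+ and cluster 3 17.1% of tdTomato- cells, and without the shared pair cluster 2 held 62.3% of tdTomato- cells.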

Other observations

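*Gm2663* and *Prss2*, trypsinogen genes, led the genes higher in tdTomato+ effector cells, each through a single cell. *Gm2663* had 41 counts in 1 cell of 9851 UMIs, which also held 38 counts of *Trbv30*. *Prss2* had 22 counts in 1 cell of 13535 UMIs, which held 0 counts of any β variable gene. Both lie on chromosome 6 inside the β chain receptor locus in the GRCm38 annotation, *Gm2663* at 40995822 to 40999479 and *Prss2* at 41521776 to 41525079, between *Trbv1*, which starts at 40891296, and *Trbc1*, which starts at 41538219. Neither gene had a count in tdTomato- effector cells.

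The cell with the most *Il17f* in the tdTomato- library held 25 of its 27 counts. In the tdTomato+ library *Il17f*, like *Il17a*, had 0 counts.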
